A study of Mus musculus with 3 samples.

Results

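Macrophages and dendritic cells are the phagocytes that take up debris and microbes in inflamed tissue and show antigen to T cells. The 53 genes described here encode their membrane receptors and lectins, together with some inner proteins of the same cells, such as the transcription factor gene Spi1 and the enzyme gene Arg1. They were chosen by name, as rows of the deposited value table whose current mouse symbol is on the list. Of the 53 genes, 50 had at least 1 row among the 16281 rows of the table, and 41 had a ratio on all arrays and entered the test, in which 8449 features (7211 of them named genes) were tested. Emilin2, Vsig4 and Cd300a had no row under their symbols. The members had 72 rows in all, of which 52 had a ratio on all arrays, 13 on some and 7 on none.

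Whole kidney RNA was compared on 3 arrays of 2 colours. Each array held Cy5-labelled RNA of a different BALB/c mouse with anti-GBM glomerulonephritis, taken at day 11 after injection of antibody against the glomerular basement membrane, and a Cy3-labelled pool of kidney RNA made from 5 normal mice of that strain. The labels name no genetic change, sex, age or antibody dose, and the control mice are called normal, with no control injection described. The 3 mice are numbered by the replicate number in the labels; dyes were not swapped, and the pool counts as 1 control sample, so the test of each mean against 0 takes no account of differences among control mice or between the dyes. Values are deposited log ratios after centring each array; the base of the logarithm is not stated, so a value of 1 means a 2-fold difference if it is 2, a 10-fold one if it is 10 and a 2.72-fold one for natural logarithms. A positive value was read as more RNA in the nephritic kidney; the dye labels make this direction likely, though the table does not state it. An array gave a usable ratio in 10998 to 11930 rows, and an exact 0, which filled 26.7 to 32.4% of the cells of an array, was treated as missing. Ratios show no level, so the tissue could be checked only by which kidney genes were measured and how they differed. Of 8 tested kidney segment genes 5 fell (against 22.3% of all features tested), 1 rose (against 20.8%) and 2 did not pass. They ranged from the proximal tubule gene Slc34a1, at -1.22 ± 0.28, to the collecting duct gene Aqp2, at 0.29 ± 0.13 (SD, n = 3), while Umod, Kap and Podxl were listed at 0 in all rows.

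As background, tissue macrophages depend on the growth factor receptor Csf1r and on the transcription factor PU.1, the product of Spi1, which binds a purine-rich site with the core GAGGAA in promoters of myeloid genes. In the kidney they lie between the tubules and around glomeruli, and in antibody-driven nephritis monocytes enter and mature there. Their scavenger and lectin receptors bind modified lipoprotein, dying cells and microbial sugars, and several lectins and Trem2 signal through the adaptors Tyrobp and Fcer1g.

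Most measured members were higher in nephritic kidney. Of the 41 tested, 34 rose, 1 fell and 6 did not pass (limma, Benjamini-Hochberg adjusted p under 0.05), so 82.9% rose, against 20.8% of all features tested, while 22.3% of all features fell. The list was chosen with earlier results of these data known. An unmoderated one-sample test passed 0 members and 0 of all features. Their median was 0.71, and that of all features -0.0081. A mean of at least 1 with a passing test was reached by 14 members, against 2.39% of all features, and 7 members were among the 100 highest features of the table. All 34 that rose were above 0 in each of the 3 mice. In a whole kidney, more cells of a type and more RNA per cell cannot be told apart. The 9 members without a ratio on all arrays are in none of these counts. When exact 0 was kept as a ratio, 50 members could be tested and 15 rose, those being Apobec1, Cd48, Clec4a2, Clec4n, Evi2a, Laptm5, Lcp1, Lcp2, Lgals1, Lilrb4a, Mpeg1, Mrc1, Pirb, Slc11a1 and Trem2; 986 of 13241 features then passed.

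**Figure D1:**
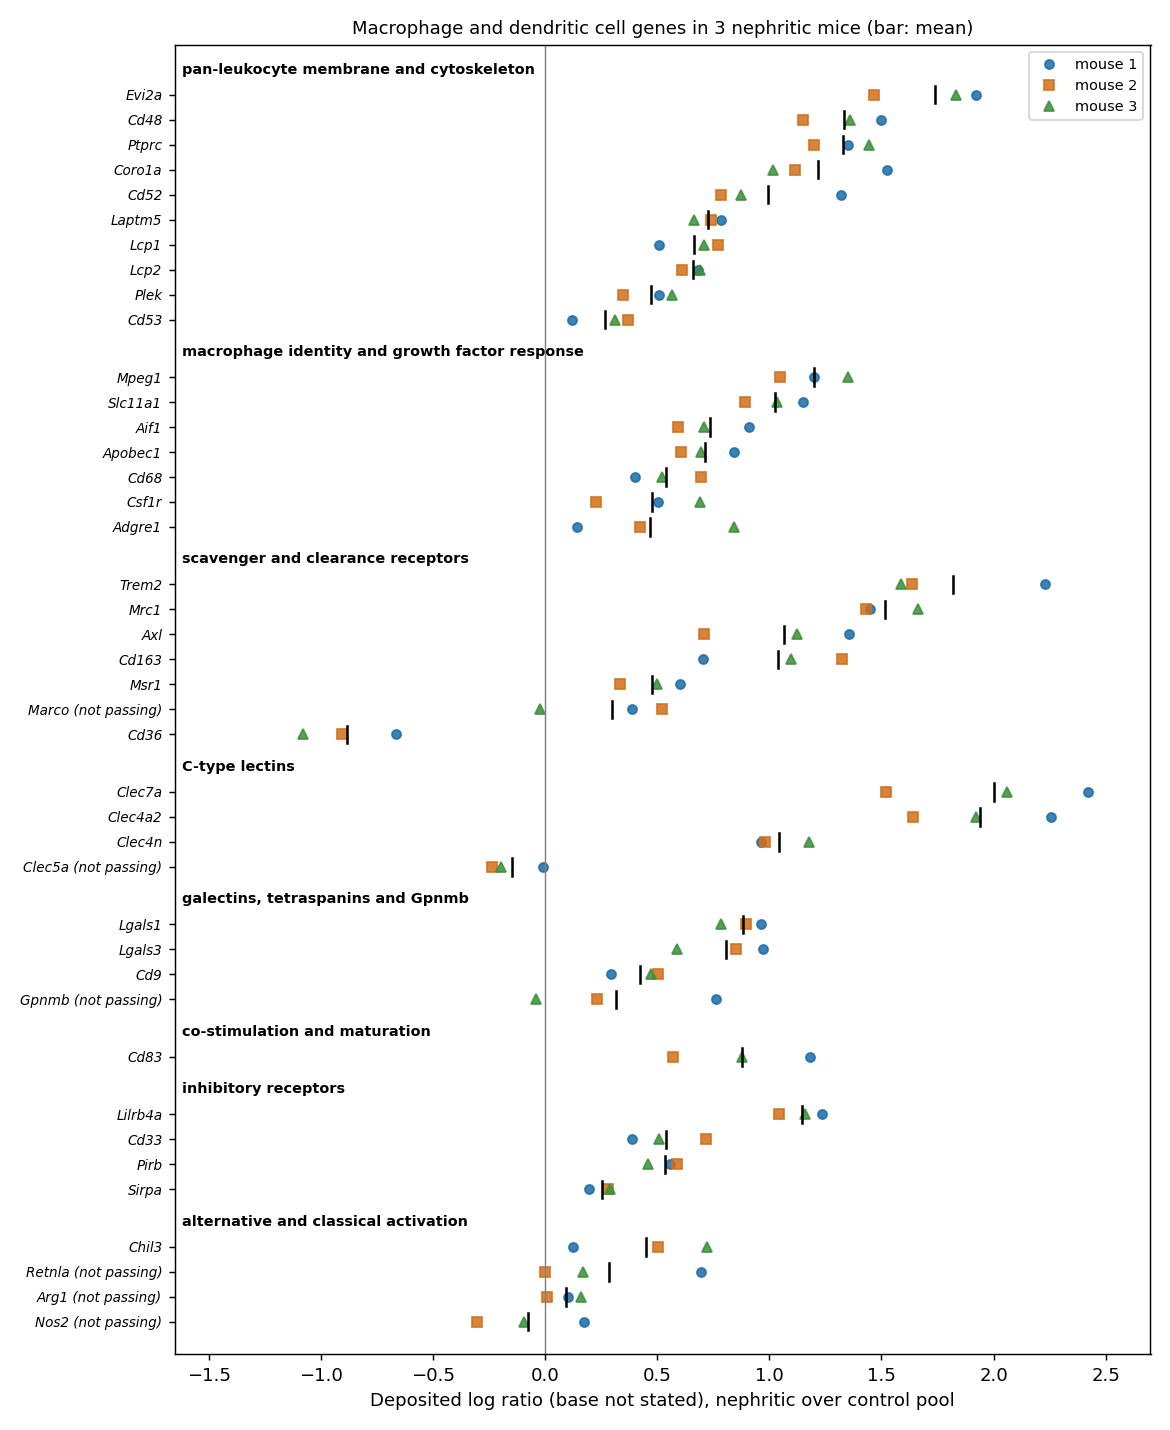
Log ratio (deposited log unit, nephritic kidney over control pool) of the 41 tested members in each of the 3 mice, grouped by role, with the mean as a bar. Clec7a, Clec4a2 and Trem2 lie farthest to the right, the lectin gene Clec5a lies to the left of 0 without passing, Cd36 is the single member to the left in all mice with a passing test, and mice 1, 2 and 3 change places from gene to gene.

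Genes shared by most leukocytes rose without exception: all 10 were tested and all 10 passed, with means from 0.27 to 1.74. Evi2a, which encodes a membrane protein at a retroviral insertion site, was the highest, at 1.92, 1.47 and 1.83 in mice 1, 2 and 3, a mean of 1.74 ± 0.24 (SD, n = 3; adjusted p = 6.16e-05). Cd48, a ligand of lymphocyte receptors of the same protein family, gave 1.50, 1.15 and 1.36, a mean of 1.34 ± 0.17. No mouse was near 0 for either gene, and mouse 2 was the lowest for both. Ptprc, the CD45 phosphatase carried by all leukocytes, read 1.35, 1.20 and 1.44 in its single complete row, a mean of 1.33 ± 0.12. A second row of Ptprc had ratios of -0.61 and -0.72 in mice 1 and 3 and none in mouse 2, on the other side of 0, and its remaining row was at 0 on all arrays. The mean of Ptprc became 0.64 when ratios on 2 arrays sufficed, and 0.30, no longer passing, with exact 0 kept as a ratio. Coro1a, an actin-binding protein of leukocytes, had 1.53, 1.12 and 1.02, a mean of 1.22 ± 0.27, and its other row gave only -0.19 in mouse 3; with exact 0 kept it was at 0.59 and did not pass.

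The small glycoprotein gene Cd52 stood at 1.32, 0.78 and 0.87, with mouse 1 above the other mice by more than these differed from each other. Laptm5, a lysosomal membrane protein of blood cells, was steadier, at 0.79, 0.74 and 0.66 (mean 0.73 ± 0.062). Lcp2, the adaptor SLP-76, was the member with the closest mice, 0.68, 0.61 and 0.69, and its separate rows agreed, with means of 0.63 and 0.69. The actin bundler gene Lcp1 rose by 0.66 ± 0.14 in its complete row, but its second row had -0.10 and -0.17 in mice 2 and 3; pooled with that row it was at 0.37, and at 0.30 with exact 0 kept, passing in both settings. Plek, a substrate of protein kinase C in platelets and leukocytes, averaged 0.47 ± 0.11 over rows that did not agree: one read 0.97, 1.17 and 1.18 in mice 1, 2 and 3, the other 0.041, -0.48 and -0.048. Cd53, a tetraspanin of leukocytes, was the lowest of the group at 0.12, 0.37 and 0.31, a mean of 0.27 ± 0.13 (adjusted p = 0.0293), and did not pass without mouse 2 (adjusted p = 0.139) or without mouse 3 (adjusted p = 0.179).

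All 7 tested genes of macrophage identity rose, between 0.47 and 1.20. Mpeg1, the pore-forming protein perforin-2 of phagocytes, led with 1.20, 1.05 and 1.35, a mean of 1.20 ± 0.15 (SD, n = 3; adjusted p = 0.0001), and Slc11a1, the metal transporter of the phagosome once called Nramp1, followed with 1.15, 0.89 and 1.03, a mean of 1.03 ± 0.13. For both, the lowest mouse was mouse 2 and lay at 0.89 or above. The RNA-editing enzyme gene Apobec1 rose by 0.71 ± 0.12, and Cd68, a glycoprotein of macrophage lysosomes, by 0.54 ± 0.15, with 0.40, 0.70 and 0.52 in mice 1, 2 and 3. Csf1r, the receptor for colony-stimulating factor 1, was at 0.51, 0.23 and 0.69, a mean of 0.48 ± 0.23, and Adgre1, the adhesion receptor that marks mouse macrophages, at 0.14, 0.42 and 0.84, a mean of 0.47 ± 0.35. These defining receptors were thus among the lower members, with mouse 3 highest for both. Without mouse 3, Adgre1 was at 0.28 (adjusted p = 0.124) and Csf1r at 0.37 (adjusted p = 0.0523), neither passing. Aif1, the calcium-binding protein Iba1, averaged 0.74 ± 0.16 over rows that stood apart: one read 1.77, 1.32 and 1.60 and the other 0.047, -0.14 and -0.18 in mice 1, 2 and 3. Spi1 itself had a ratio in mouse 1 alone, 0.20.

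The promoters of the members are shown because 34 of the 41 tested members rose and Spi1, itself not tested here, is a member. RefSeq promoter windows (mouse GRCm38.p6, 250 bases before to 50 after a start) were found for 38 of the 53 genes, 43 windows in all. The PU box core GAGGAA, searched on both strands (TTCCTC on the other), was present in 24 of the 43 windows, 55.8%, against 28.3% of all 32851 windows in the table. Counted by gene, it was found for 23 of 38 members, 60.5%, against 31.3% of 27025 genes. Of the 24 members that rose and have a window, 14 held it, so 9 of the other 14 did as well. Of these 9, Marco, Clec5a and Retnla were tested and did not pass. Clec4d, Clec4e, Cd63, Lgals9, Cd300a and Vsig4 were not tested, so the counts do not compare genes that rose with genes that did not. The 100 bases upstream of the start are printed for Clec7a, Trem2 and Mrc1, the members with the highest means among those with a match in that stretch, for the pan-leukocyte gene Laptm5, and for Clec5a, which has 2 matches and did not pass. Sequences run 5′ to 3′ on the gene's strand and capitals mark the match; a match is a description of the letters and not a bound site.
Clec7a: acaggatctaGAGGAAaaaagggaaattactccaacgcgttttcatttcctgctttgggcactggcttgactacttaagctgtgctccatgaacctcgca
Trem2: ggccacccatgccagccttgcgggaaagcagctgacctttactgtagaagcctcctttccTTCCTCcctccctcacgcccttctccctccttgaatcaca
Mrc1: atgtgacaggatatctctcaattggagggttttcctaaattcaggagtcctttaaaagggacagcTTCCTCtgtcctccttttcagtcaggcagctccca
Laptm5: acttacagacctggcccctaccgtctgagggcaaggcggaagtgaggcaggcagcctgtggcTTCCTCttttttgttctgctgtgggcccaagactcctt
Clec5a: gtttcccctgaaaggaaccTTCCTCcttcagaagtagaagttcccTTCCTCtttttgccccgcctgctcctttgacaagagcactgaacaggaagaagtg
The Clec7a stretch is chr6:129472786-129472885 (minus strand) with the match at -90, Trem2 is chr17:48346301-48346400 (plus) with the match at -40, and Mrc1 is chr2:14229314-14229413 (plus) with the match at -35. Laptm5 is chr4:130913216-130913315 (plus) with the match at -38, and Clec5a is chr6:40585806-40585905 (minus) with matches at -81 and -55. Positions count back from the first transcribed base of the RefSeq model and give the first base of the match. In Trem2, Mrc1, Laptm5 and Clec5a the core lies on the strand opposite to the gene, and in Clec7a on the gene's own strand.

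Among scavenger and clearance receptors, 5 of 7 tested rose, 1 fell and 1 did not pass. Trem2, a receptor for lipids and dying cells that signals through Tyrobp, stood at 2.23, 1.64 and 1.59 in mice 1, 2 and 3, a mean of 1.82 ± 0.36 (SD, n = 3; adjusted p = 0.000123). A second Trem2 row had 1.13 and 1.15 in mice 2 and 3 and none in mouse 1, on the same side of 0 and lower in both; the remaining row was at 0 on all arrays, and with exact 0 kept the gene was at 0.87, still passing. The mannose receptor gene Mrc1, a mark of alternatively activated macrophages, had 1.45, 1.43 and 1.66, a mean of 1.51 ± 0.13 and the smallest adjusted p of the members, 4.9e-05. The 3 mice lay within 0.23 of each other for this gene. Axl, a kinase receptor for phosphatidylserine on dying cells, read 1.36, 0.71 and 1.12, a mean of 1.06 ± 0.33, with mouse 2 well below the others. Cd163, the haemoglobin scavenger receptor, read 0.70, 1.32 and 1.10, a mean of 1.04 ± 0.31, with the mice in the opposite order. The scavenger receptor gene Msr1 rose by 0.48 ± 0.13.

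Cd36 was the one member that fell. It encodes a fatty acid and oxidised lipoprotein receptor found on macrophages and also on endothelium and tubule cells, and it stood at -0.66, -0.91 and -1.08, a mean of -0.88 ± 0.21 (adjusted p = 0.000483). The value was -0.66 or lower in each mouse. It did not pass with exact 0 kept as a ratio (adjusted p = 0.0683) but kept its mean, -0.87. The bacteria-binding receptor gene Marco, at 0.39, 0.52 and -0.020, did not pass (adjusted p = 0.0662), with mouse 3 apart from the others; without mouse 3 it passed, at 0.46, and without mouse 2 it was at 0.18 (adjusted p = 0.276). Mertk, the partner of Axl in clearance of dying cells, had ratios of -0.026 and 0.11 in mice 1 and 3, both close to 0. Cd14, the endotoxin co-receptor, was at exact 0 on all arrays, so nothing can be said of it.

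C-type lectins held the highest values. Clec7a, or dectin-1, a receptor for fungal glucan, ranked 11 among all features, at 2.42, 1.52 and 2.06 in mice 1, 2 and 3, a mean of 2.00 ± 0.45 (SD, n = 3; adjusted p = 0.000166). It had a complete second row: one read 2.03, 1.26 and 1.64 and the other 2.81, 1.78 and 2.48, so the rows differed in size and put the mice in the same order. Clec4a2, an inhibitory lectin of dendritic cells and macrophages, ranked 14 at 2.25, 1.64 and 1.92, a mean of 1.94 ± 0.31, with rows that agreed closely (1.90 and 1.98). Mouse 1 was highest and mouse 2 lowest for both genes. Clec4n, or dectin-2, which binds fungal mannan, was at 0.96, 0.98 and 1.18, a mean of 1.04 ± 0.12. Clec5a, a Tyrobp-coupled lectin, was at -0.0071, -0.24 and -0.20 and did not pass (mean -0.15 ± 0.12, adjusted p = 0.16); without mouse 1 it was at -0.22 and passed as a fall, and its other row read 0.51 in mouse 3 alone. Clec4d and Clec4e, neighbours that bind mycobacterial glycolipid, had 1 usable ratio each, 0.27 in mouse 3 and 0.20 in mouse 2. The lectins were therefore measured unevenly, and the high values belong to 3 of the 6.

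**Figure D2:**
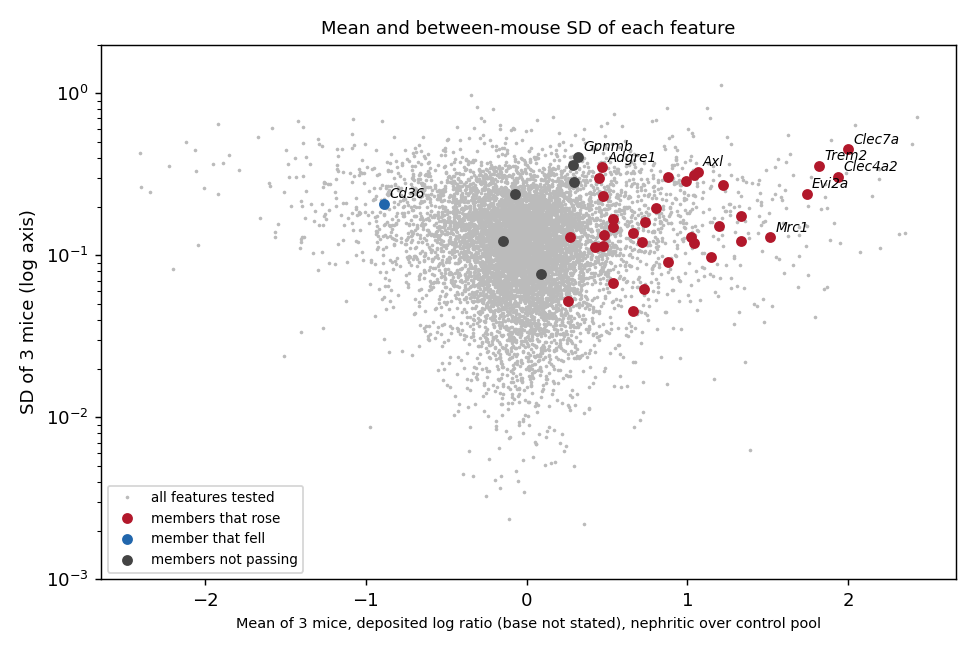
Mean log ratio of the 3 mice (x axis, deposited log unit) against their SD (y axis, log scale) for all 8449 features in grey and the 41 tested members in colour. Clec7a, Clec4a2, Trem2 and Evi2a lie at the right edge of the cloud, and the median SD of the members, 0.16, is above that of all features, 0.12.

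Galectins are sugar-binding proteins that macrophages and injured tubules both make. Lgals1 stood at 0.96, 0.89 and 0.78, a mean of 0.88 ± 0.091, and Lgals3 at 0.97, 0.85 and 0.59, a mean of 0.81 ± 0.20 (SD, n = 3). The mice ran in the same order for both, from mouse 1 down to mouse 3, and the separate rows of each gene differed by 0.17 and 0.16. Lgals9 had 0.33 and 0.55 in mice 2 and 3. Among tetraspanins, Cd9 rose by 0.42 ± 0.11, while Cd63 had a single ratio of 0.24, in mouse 1. Gpnmb, a glycoprotein of lipid-laden macrophages, had the widest range between mice after Clec7a, at 0.76, 0.23 and -0.039 in mice 1, 2 and 3; it did not pass (mean 0.32 ± 0.41, adjusted p = 0.114) and passed without mouse 3, at 0.50, whereas without mouse 1 it was at 0.097 (adjusted p = 0.379).

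Co-stimulatory molecules, which give T cells their second signal, were measured only in part. Cd83, a mark of mature dendritic cells, rose to 1.18, 0.57 and 0.88 in mice 1, 2 and 3, a mean of 0.88 ± 0.31 (SD, n = 3), in rows with means of 0.83 and 0.92. Cd86 had 0.43 and 0.59 in mice 2 and 3, and Cd80 a single 0.28 in mouse 1. All 3 usable ratios of Cd86 and Cd80 were above 0, and neither gene could enter the test.

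Genes listed as inhibitory receptors of myeloid cells, several of which recruit phosphatases through their tails, rose in all 4 tested cases. Lilrb4a was highest at 1.23, 1.04 and 1.16, a mean of 1.15 ± 0.097 (SD, n = 3; adjusted p = 8.24e-05), with rows at 1.35 and 0.94. Pirb, a receptor for MHC class I, rose by 0.53 ± 0.068 and the sialic acid-binding lectin Cd33 by 0.54 ± 0.17. Sirpa, the receptor for the "do not eat me" signal Cd47, gave the smallest rise of all members, 0.26 ± 0.052 (adjusted p = 0.0209), from rows at 0.088 and 0.42; it did not pass without mouse 2 (adjusted p = 0.0893) or mouse 3 (adjusted p = 0.17). Pirb, Lilrb4a, Sirpa, Clec4a2 and Chil3 have close paralogs in the mouse, and signal from such copies cannot be told apart here.

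The genes used to sort macrophages by activation state had the lowest median of the 8 roles, 0.19, and 1 of the 4 passed. Chil3, a chitinase-like protein of alternatively activated mouse macrophages, was at 0.12, 0.50 and 0.72 in mice 1, 2 and 3, a mean of 0.45 ± 0.30 (SD, n = 3; adjusted p = 0.0188), and did not pass without mouse 2 (adjusted p = 0.0534) or mouse 3 (adjusted p = 0.106). Arg1, which breaks down arginine, had 0.10, 0.010 and 0.16, a mean of 0.092 ± 0.076 (adjusted p = 0.322), and Nos2, which makes nitric oxide from it, 0.17, -0.30 and -0.094, a mean of -0.074 ± 0.24 (adjusted p = 0.574). Neither passed, and the mice lay on both sides of 0 for Nos2. Retnla, a secreted protein of alternative activation, averaged 0.70, 0.00022 and 0.17 and did not pass (adjusted p = 0.118); it passed without mouse 2, at 0.43. One of its rows stayed close to 0, -0.075, 0.015 and 0.033, and the other read 1.46, -0.014 and 0.30 in mice 1, 2 and 3, so its mean rests on mouse 1 in a single row. Mrc1 and Cd163, also used as marks of alternative activation, had higher ratios than these 4, as given above.

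**Figure D3:**
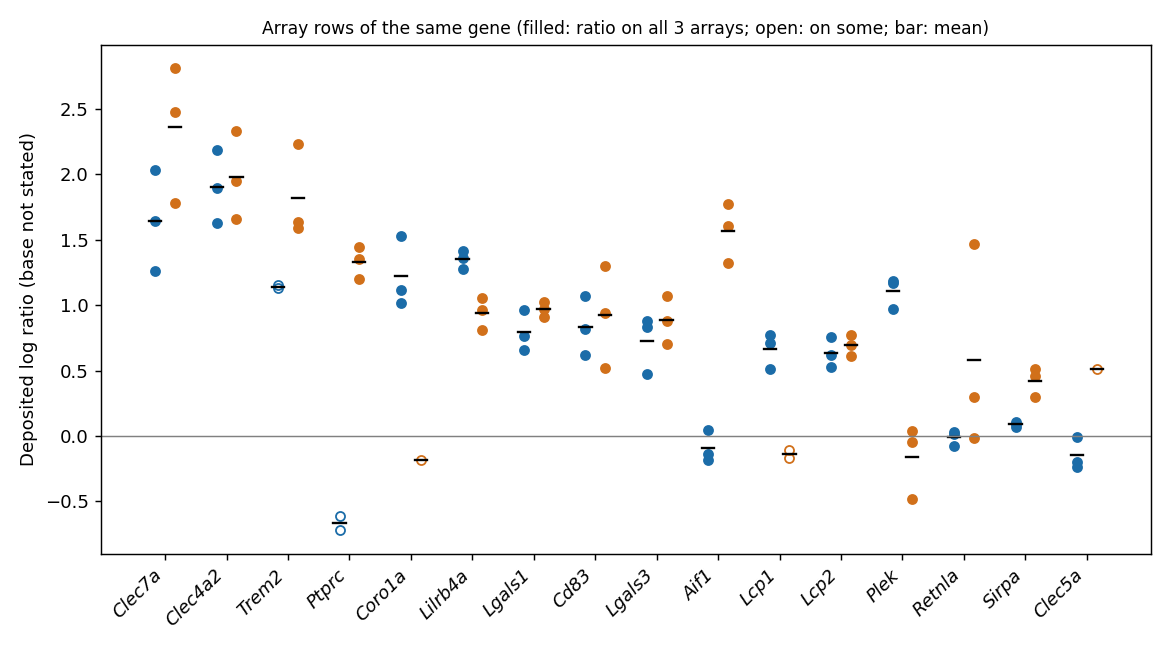
Log ratios in each mouse for members with more than 1 row carrying a ratio; the rows of a gene stand side by side (blue, then orange), filled points are rows with a ratio on all arrays and bars are means. Rows of Clec4a2, Lcp2, Lgals1, Lgals3 and Cd83 lie close together, while those of Aif1, Plek, Ptprc, Coro1a and Lcp1 lie on opposite sides of 0.

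Rows of the same gene bear on how far a single value can be read. Of the 11 members with over 1 complete row, the gap between row means was above 1 for 2, Aif1 (1.65) and Plek (1.27), or 18.2%, and its median was 0.34. Over all 1139 genes with over 1 complete row, 39, or 3.42%, had such a gap and the median was 0.18. With rows tested singly and each gene counted by its row with the smallest p, which favours a call, 34 of the 41 members again rose and 1 fell. In that test the higher row of Aif1 and of Plek passed, at 1.56 and 1.11, and the lower row of each did not (adjusted p = 0.385 and 0.263). For Sirpa, too, 1 row passed (adjusted p = 0.00375) and the other did not (adjusted p = 0.345).

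No mouse was the highest for every member, but mouse 1 was most often the highest and mouse 2 most often the lowest, as over all features. Over the 41 members the mean was 0.85 in mouse 1, 0.68 in mouse 2 and 0.76 in mouse 3. Mouse 1 was highest for 22 members and mouse 2 lowest for 22, against 3575 and 3275 of the 8449 features. The range between mice was over 0.5 for 13 members, widest for Clec7a (0.90) and Gpnmb (0.80). Adgre1, Chil3 and Cd163 were lowest in mouse 1, the mouse in which Clec7a, Trem2 and Axl were highest.

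Other genes of these receptors and cells, from lists chosen with earlier results known, rose in 22 of 36 tested cases and fell in 1. The share that rose was 61.1%, against 20.8% of all features tested. Among signalling partners 6 of 8 rose, led by the adaptors Fcer1g at 0.97 ± 0.17 and Tyrobp at 0.80 ± 0.11 (SD, n = 3), whose receptors include Trem2, Clec4n and Clec5a. Further macrophage genes rose in 10 of 13 cases, led by the protease Ctss at 1.83 ± 0.19 and the lysozyme Lyz2 at 1.69 ± 0.099. The monocyte gene Ly6c2 and the chemokine receptor gene Cx3cr1 were at -0.12 ± 0.061 and -0.044 ± 0.19 and did not pass. The remaining gene of that list without a pass, Zbtb46, was at 0.12 ± 0.24 (adjusted p = 0.375), from rows at 0.60 and -0.37. Flt3 and Siglec1, from the growth factor and clearance lists, were at -0.070 ± 0.39 and -0.010 ± 0.13 and did not pass. These 5 genes were named after their values were seen. Of the bridging molecules that tie dying cells to 1 or more receptors of the family of Axl and Mertk, Pros1 rose by 0.82 ± 0.097. Gas6, at 0.075 ± 0.15, did not pass. Mfge8, which ties them to integrins, rose by 0.65 ± 0.056, and Tyro3, the remaining receptor of the Axl family, did not pass at 0.0017 ± 0.18. For the ligands of Csf1r, Il34 rose by 0.71 ± 0.22 while Csf1, at 0.19 ± 0.063, did not (adjusted p = 0.0636); Csf1 passed without centring and without mouse 1, at 0.20 and 0.22. Among myeloid transcription factors 3 of 6 rose, the 2 with the smallest p being Klf4 at 0.94 ± 0.074 and Cebpb at 0.79 ± 0.25, and the lipid-sensing receptor gene Nr1h3 fell, at -0.28 ± 0.16, and no longer passed when mouse 2 or mouse 3 was left out (adjusted p = 0.151 and 0.16).

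Markers of other cells were read beside the members, since many pan-leukocyte members are shared with them. Of all features tested 20.8% rose and 22.3% fell, and the counts of each list stand beside these shares. Of 9 tested T cell markers 4 rose and 5 did not pass, with a median of 0.25 and list means of 0.27 to 0.32 in the 3 mice. Cd8a at 0.99 ± 0.16, Thy1 at 0.82 ± 0.064, Cd5 at 0.26 ± 0.16 and Cd4 at 0.24 ± 0.0062 rose (SD, n = 3). Other rows had 0.14 for Cd8a and -1.08 for Cd5, each in mouse 3 alone. With exact 0 kept, Cd8a was at 0.53 and still passed. The call of Cd4 was lost without mouse 2 or mouse 3 (adjusted p = 0.0975 and 0.168). Cd2, Zap70, Lat, Cd28 and Cd8b1 did not pass, with means from 0.25 down to -0.054. Another Cd8b1 row had 0.31 and 0.73 in mice 1 and 3. Cd3e was at 0 on all arrays, and Cd3d and Cd3g had ratios on some. Of 6 B and plasma cell markers 3 rose, with a median of 0.21 and list means of 0.059 to 0.24; Cd79a was at 0 on all arrays. None of 4 tested NK cell markers passed in the limma fit, though 2 reached an unadjusted p under 0.05. An unmoderated one-sample test passed none of them either (0 at an unadjusted p under 0.05). That test passed 0 of all 8449 features, so its outcome does not set these markers apart from other genes. The NK list means were -0.015 to 0.41, and Klrb1c, Gzmb and Nkg7 were at 0 on all arrays. Of 11 neutrophil markers 3 rose (27.3%), 4 fell and 4 did not pass, with list means of 0.12 to 0.26 in the 3 mice and a median of -0.089. S100a9 at 1.48 ± 0.16, Lcn2 at 1.22 ± 0.15 and S100a8 at 0.55 ± 0.13 rose, the last from complete rows at 1.04 and 0.061. The surface marker Ly6g at -0.51 ± 0.20, Cxcr2 at -0.31 ± 0.017, Ltf at -0.23 ± 0.12 and Ngp at -0.23 ± 0.11 fell. Other cells also make the genes that rose, and which cells made these RNAs was not tested. Fibroblast and mesangial markers rose in 7 of 10, with list means of 1.27, 0.62 and 0.87 in mice 1, 2 and 3. This was the order of mice in the members' means, and also in the means of all features tested (0.015, -0.012 and 0.0077). The means of the B and plasma cell, NK cell, mast cell and platelet lists had the same order. Of 8 endothelial markers 1 rose, with list means of 0.015 to 0.18. The remaining lists had 2 tested genes each. Of the mast cell genes Kit rose, at 0.44 ± 0.095, and Cma1 fell, at -0.34 ± 0.25 (list means of -0.013 to 0.14). Mcpt4, Tpsab1, Fcer1a and Ms4a2 were at 0 on all arrays. Of the platelet genes Pf4 rose, at 2.19 ± 0.34 (1.10 with exact 0 kept). Itga2b was below 0 in all mice at -0.19 ± 0.043 without passing (list means of 0.91 to 1.18). A row of the untested Ppbp had -1.07 and -0.88 in mice 1 and 3, and another 0.41 in mouse 2. Of the erythroid genes Alas2 rose, at 0.29 ± 0.16, and Slc4a1 fell, at -1.23 ± 0.19 (list means of -0.58 to -0.38). In each of these lists the mean is the average of 2 genes on opposite sides of 0, so it does not describe the cell type. The part of these cells in the members' values was not tested.

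**Figure D4:**
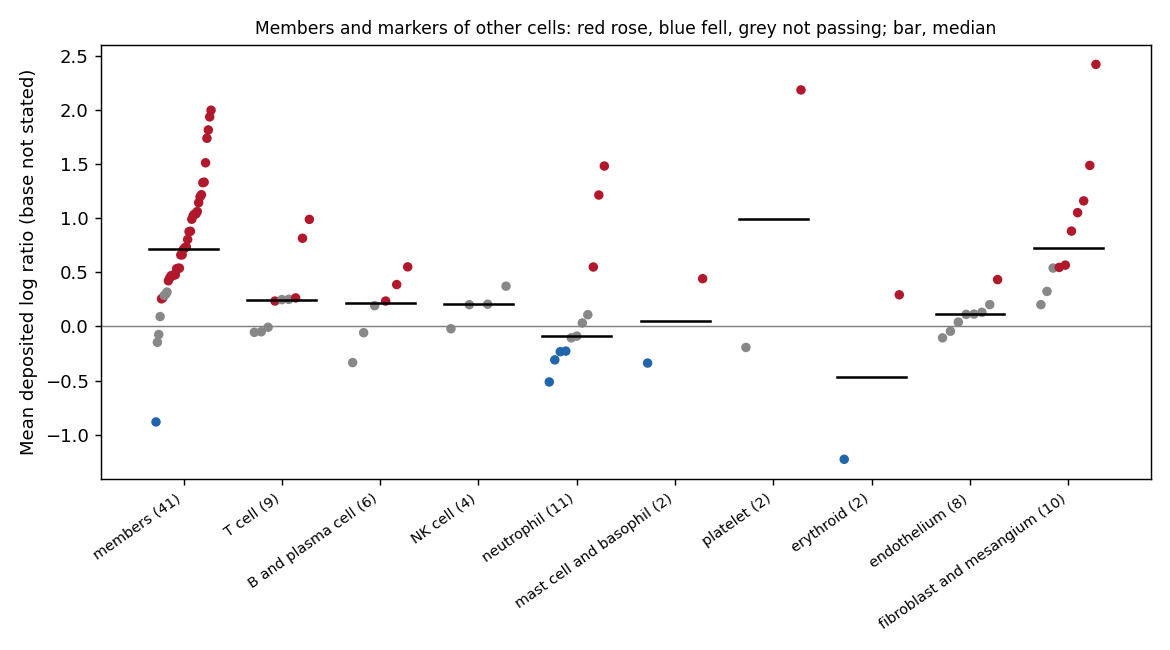
Mean log ratio (deposited log unit) of each tested member and of each tested marker of other cells, with the number tested in brackets and the median as a bar; red points rose, blue fell and grey did not pass. The members' median is 0.71, above the medians of the T cell (0.25), B cell (0.21), NK cell (0.20), endothelial (0.11), mast cell (0.052, the midpoint of Kit and Cma1), neutrophil (-0.089) and erythroid (-0.47, the midpoint of Alas2 and Slc4a1) lists, close to that of the fibroblast and mesangium list (0.72) and below that of the platelet list (1.00, the midpoint of Pf4 and Itga2b).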

How the data were processed

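Total kidney RNA of 3 nephritic BALB/c mice and 1 control pool was measured on 3 arrays. Per the labels, the deposited log ratios compare Cy5 (nephritic) with Cy3 (pool); no source used here names the scanner, the normalization or the base of the logarithm. The table held 16281 rows, of which 13738 had 1 gene symbol, 52 several and 2491 none in the platform annotation; symbols were updated through gene identifiers with RefSeq (GRCm38.p6), where 13694 rows matched. Exact 0 (5043, 5283 and 4351 cells) was taken as missing, each array was centred on its median (0.0151, 0.0160 and 0.0171), complete rows of a gene were averaged, and the 8449 features complete on the 3 arrays were tested with limma 3.58.1 in R 4.3.3 (lmFit with an intercept, eBayes with 4.85 prior and 2 residual degrees of freedom, two-sided, Benjamini-Hochberg over all of them, threshold 0.05). Adjusted p-values are from this model unless another is named. The code was tested on simulated data with known changes.

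Every member with a row is named; of the related lists, the genes with the smallest p in each direction, and of other cells, the lists and their defining markers. The members and lists were chosen with earlier results of these data known, and no test was made on a list. The arrays' number limits the precision. The limma p-values set each mean against the spread between these 3 mice, drawn towards the spread typical of all features. The prior from all features had 4.85 degrees of freedom and the mice gave 2. Alternatives were no centring, scaling of arrays, each row on its own, at least 2 arrays per row, exact 0 kept, a robust prior, an unmoderated test, dropping the 20% of lowest SD, and dropping each mouse in turn.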

Additional observations from a re-analysis of the deposited data

How the results depend on the processing

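No member changed the direction of a called value under any alternative, and none of the 41 changed its side of the threshold without centring, with arrays scaled, with a robust prior, with rows tested singly or with ratios on 2 arrays. With exact 0 kept as a ratio, 15 members rose and 0 fell (1 was lower at an unadjusted p under 0.05), 11 related genes rose and 0 fell (0 lower at an unadjusted p under 0.05), and 549 features rose and 437 fell; 20 members lost their calls. Zeros of further rows then enter the averages of genes such as Ptprc, Coro1a and Trem2, and 13241 features are adjusted over. Rows holding zeros also enter the prior that limma takes from all features. Axl, which has 1 row, had the same mean as without centring, 1.08, with a limma adjusted p of 0.0878 against 0.000682. Which of these changes cost a member its call was not tested. The unmoderated one-sample test, with 2 residual degrees of freedom, passed 0 features, 0 members and 0 related genes, in either direction (3060, 31 and 23 at an unadjusted p under 0.05, against 4361, 36 and 25 for limma). Related genes that fell numbered 2 with ratios on 2 arrays and 2 without the features of lowest SD. In the latter setting Gpnmb, Marco and Retnla also passed as higher (limma adjusted p = 0.0109, 0.0184 and 0.0234). There the adjusted p of the members followed the size of the mean and not the gene's own SD, reaching 2.4e-71 for Clec7a. Passes in that setting therefore say nothing of how well the 3 mice agreed. Leaving out each mouse gave 31 to 34 members that rose and 1 to 2 that fell, 22 to 23 related genes that rose and 0 to 1 that fell (without mouse 3, 1 was lower at an unadjusted p under 0.05 in limma), and 1096 to 2017 features that rose and 1106 to 2176 that fell; the count of rises was lowest without mouse 3. Without mouse 3, Adgre1, Cd53, Chil3, Csf1r and Sirpa lost their calls, and without mouse 2, Cd53, Chil3 and Sirpa did. No paired analysis was possible because there is 1 group of mice and the pool is the same on every array. Signal over background was not analysed here.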

Other observations

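A second motif was searched in the same promoter windows. The AP-1 site TGAGTCA, on either strand, was present in 3 of the 43 windows of members, 6.98%, against 5.2% of all 32851 windows.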
